A study of Mus musculus with 24 samples.

Results

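The late chase of the control preleukemic cells was followed in 6 of the 24 libraries of the series, namely the 3 control libraries labelled 180 min and the 3 labelled 540 min of chase, which are 3 h and 9 h after the label was withdrawn. Libraries were chosen by genotype and chase time alone. The cells were mouse hematopoietic cells from fetal liver that had been transduced with Meis1 and Hoxa9 retroviruses and grown in medium with serum, Stem Cell Factor, IL-6 and IL-3, and, per the study's methods, the controls were Tut4 fl/fl and Tut7 fl/fl cells without the Vav-iCre transgene, the floxed alleles being shared with the double knockout (cDKO) cells, in which Vav-iCre, expressed in blood cells, deletes both genes. All cells had been fed 4-thiouridine at 2.9 µM for 12 h before the chase began in medium without it. The labels give the chase time also as the batch, so that time of chase and batch cannot be told apart in any comparison below. The 3 libraries of a time were labelled as replicates, which the methods call biological triplicates, and p-values measure the spread between them. The control libraries at 0 and 60 min (3 each) are used to place a value and in the alternative fits with all 12 control libraries. The cDKO libraries at 180 and 540 min (3 each) enter the tests of the difference between genotypes and a fit of their own.

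4-Thiouridine is a uridine analogue that cells take up and build into RNA as it is made. After alkylation of the extracted RNA, reverse transcription turns a labelled T position into a C. The conversion rate, which is conversions as a percentage of covered T positions, falls in the chase as labelled transcripts decay and unlabelled ones replace them. The abundance of a transcript and the share of it that is still labelled are separate measurements, since a transcript can be replaced quickly while its level stays the same. Hoxa9 and its cofactor Meis1 keep myeloid progenitors in a self-renewing state, and TUT4 and TUT7 are terminal uridylyltransferases, enzymes that attach uridines to RNA tails and in doing so mark many RNAs for decay.

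The 6 libraries held 9979871 to 13882269 filtered reads, of which 4987146 to 7041311 fell in the 3′ untranslated regions (3′UTRs) that were counted. Abundance is given as reads scaled to a common total (CPM). The multimapping share was 9.83% to 9.87% at 180 min and 9.20% to 9.25% at 540 min, without overlap, and the part of this difference in the results was not tested. The first principal component, with 38.3% of the variance, separated the times, and replicate 2 of 540 min stood farthest from its group along the second (19.5%). Tut4, a target of the deletion, had 77.6, 88.3 and 105 CPM at 180 min and 81.3, 84.9 and 76.5 CPM at 540 min in controls, against 35.6, 33.6 and 34.6 and then 26.4, 27.3 and 21.2 CPM in cDKO libraries. The counted 3′ ends need not lie in the deleted part of the gene. Tut7 had 61.0, 66.1 and 50.6 and then 62.6, 54.5 and 61.4 CPM in controls. The log2 change from 180 to 540 min in controls was -0.21 ± 0.11 for Tut4 and -0.04 ± 0.12 for Tut7, and neither passed the test (edgeR, adjusted p = 0.20 and 0.86). Of 13 markers of myeloid progenitors, 12 were expressed enough to be tested. Markers of other cells were low: none of 8 erythroid markers was tested, the summed level of the 8 being 0.401 to 3.07 CPM at 180 min and 0.568 to 2.96 CPM at 540 min, and the B cell markers found in the files were at 0 in all 6 libraries. Of the mast and basophil markers Mcpt8 fell, and the 9 summed to 20.5 to 27.3 CPM at 180 min and 14.01 to 16.8 CPM at 540 min, and the 10 macrophage markers to 71.8 to 102 CPM and 76.8 to 112 CPM. Of 3 macrophage markers tested 1 was higher at 540 min. The 7 stromal markers, 6 of them under 1 CPM in all 6 libraries, summed to 55.7 to 122 CPM and then 55.4 to 111 CPM. The 7 megakaryocyte markers summed to 3.57 to 7.22 CPM and then 2.59 to 7.30 CPM. The 6 T and NK cell markers summed to 3.01 to 4.96 CPM and then 2.22 to 4.54 CPM. In bulk samples, fewer cells of a type and less RNA per cell cannot be told apart.

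Between 180 and 540 min, 1651 of 10123 tested genes changed in abundance (16.3%; edgeR quasi-likelihood test, adjusted p under 0.05), 830 of them higher (8.2%) and 821 lower (8.11%) at 540 min. Most changes were small: the median log2 change was 0.50 among the genes that rose and -0.38 among those that fell, and 80 rose and 47 fell by more than 2-fold. Without replicate 1 of 180 min 1004 genes passed. With libraries scaled by their totals alone the split was 1101 higher and 570 lower, since that scaling moves the median of all genes by 0.05 (log2). Of the 1651 genes, 1560 had groups that did not overlap, which 32.6% of all tested genes had. Mitotic genes, ribosome biogenesis genes and targets of p53 had 12 to 24 members lower and none higher. Hypoxia genes (6 higher, 1 lower) and the self-renewal list (6 higher, 3 lower) had most of their called members higher. The self-renewal list also holds Cebpa, a factor of lineage commitment, which rose, while its members Hoxa9 and Cd44 fell.

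The promoters of 3 mitotic genes that fell and of 2 hypoxia genes that rose are shown because most called members of each list moved in the same direction. They are the 250 bases before and 50 bases after the annotated start from RefSeq (GRCm38.p6), 5′ to 3′ on the gene's own strand. In the mitotic promoters the capitals mark TTTGAA, the core of the cell cycle genes homology region, and CCAAT, the box bound by the NF-Y complex, on either strand (TTCAAA and ATTGG on the other). In the hypoxia promoters the capitals mark ACGTG, the core of the hypoxia response element, on either strand (CACGT). Cdk1 lies at chr10:69352863-69353162 (minus strand), Plk1 at chr7:122159185-122159484 (plus), Cdc20 at chr4:118437294-118437593 (minus), Bnip3 at chr7:138909457-138909756 (minus) and Ankrd37 at chr8:45999801-46000100 (minus).
Cdk1: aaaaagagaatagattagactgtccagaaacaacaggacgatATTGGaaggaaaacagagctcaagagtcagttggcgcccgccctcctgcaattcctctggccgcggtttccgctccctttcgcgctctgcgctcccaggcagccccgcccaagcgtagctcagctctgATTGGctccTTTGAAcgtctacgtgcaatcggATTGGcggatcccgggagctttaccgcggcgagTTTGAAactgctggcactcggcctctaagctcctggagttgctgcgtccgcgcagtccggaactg
Plk1: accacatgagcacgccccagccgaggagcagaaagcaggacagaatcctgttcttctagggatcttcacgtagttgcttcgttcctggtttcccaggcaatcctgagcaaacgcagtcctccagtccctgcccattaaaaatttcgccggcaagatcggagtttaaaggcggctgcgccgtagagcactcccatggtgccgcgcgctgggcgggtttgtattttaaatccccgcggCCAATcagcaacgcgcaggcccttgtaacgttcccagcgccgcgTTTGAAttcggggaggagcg
Cdc20: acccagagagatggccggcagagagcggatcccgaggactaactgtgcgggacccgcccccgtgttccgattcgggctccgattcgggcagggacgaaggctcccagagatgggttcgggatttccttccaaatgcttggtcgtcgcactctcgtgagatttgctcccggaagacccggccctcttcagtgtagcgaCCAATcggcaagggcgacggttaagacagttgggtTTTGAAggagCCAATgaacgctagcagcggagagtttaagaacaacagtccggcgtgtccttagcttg
Bnip3: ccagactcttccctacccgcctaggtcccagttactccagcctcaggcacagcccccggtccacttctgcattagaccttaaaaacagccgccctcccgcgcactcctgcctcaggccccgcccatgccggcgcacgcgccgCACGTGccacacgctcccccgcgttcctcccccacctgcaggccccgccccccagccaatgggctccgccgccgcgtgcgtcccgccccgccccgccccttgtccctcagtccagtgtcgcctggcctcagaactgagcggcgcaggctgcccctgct
Ankrd37: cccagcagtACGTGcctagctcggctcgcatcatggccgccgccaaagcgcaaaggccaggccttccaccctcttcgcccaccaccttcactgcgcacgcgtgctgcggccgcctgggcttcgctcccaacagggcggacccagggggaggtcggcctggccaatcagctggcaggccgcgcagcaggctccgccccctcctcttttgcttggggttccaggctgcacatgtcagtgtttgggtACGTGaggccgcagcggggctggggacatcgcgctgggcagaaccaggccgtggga
A promoter was found for 33 of the 38 mitotic genes. The homology region core was present in 23 of the 33 (69.7%), against 20.2% of 27025 genes with a promoter in the table. The NF-Y box was present in 28 (84.8%), against 41.1%, and both in 21 (63.6%), against 8.97%. Among the 21 mitotic genes with a promoter that fell, 15 held the homology region core and 20 the NF-Y box, against 23 and 28 of all 33. The hypoxia core was present in 12 of 14 hypoxia promoters (85.7%), against 21.8% of all, and in 4 of the 5 that belong to genes that rose. The lists were drawn up by function, these letters are known from such genes, and a match is a description and not a site in use.

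Genes of mitosis and the G2/M transition fell together. Of 38 tested, 24 were lower and none was higher, with a median log2 change of -0.37 against 0.00 for all tested genes. Cdk1, the kinase that drives entry into mitosis, had 322, 324 and 356 CPM at 180 min and 245, 231 and 239 CPM at 540 min. All 3 late libraries lay below all 3 earlier ones, for a fitted log2 difference of -0.54 ± 0.06 (± is the SE, here and below, and the edgeR adjusted p = 1.2e-06). Its partner Ccnb1, cyclin B1, had 192, 183 and 218 CPM and then 144, 127 and 135 CPM, again without overlap (-0.60 ± 0.08, edgeR adjusted p = 9.7e-06). Cenpa, the histone variant of centromeres, fell by 0.51 on the log2 scale and Kif23, a kinesin of the central spindle, by 0.44. Nek2, a centrosomal kinase, had the largest fall of the list, from 24.7, 21.4 and 26.6 CPM to 14.6, 8.64 and 11.8 CPM (-1.11 ± 0.22). Plk1, which acts at several steps of mitosis, had 254, 251 and 275 CPM and then 219, 236 and 214 CPM, and Cdc20, an activator of the anaphase-promoting complex, had 498, 532 and 509 CPM and then 459, 461 and 431 CPM. Both groups of values stayed apart, and the changes were smaller than most of the list (-0.27 ± 0.07 and -0.24 ± 0.06). Nek2, Cdc20 and, below, Mdm2 and Ankrd37 were named after their values were seen. The count of mitotic genes lower was 19 to 25 under the alternative settings.

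Genes of DNA replication did not follow the mitotic genes. Of 38 tested, 6 were higher and 2 lower, with a median of 0.08, and 10 were higher with scaling by library totals. Mcm6, a subunit of the replicative helicase, had 258, 273 and 272 CPM at 180 min and 324, 329 and 348 CPM at 540 min (0.27 ± 0.06, edgeR adjusted p = 0.0035). E2f1, a transcription factor that drives S phase genes, had 64.6, 62.1 and 60.0 CPM and then 84.0, 85.4 and 94.02 CPM. Cdt1 and Cdc6, which load the helicase at origins, rose by 0.35 ± 0.09 and 0.47 ± 0.13 on the log2 scale, though Cdc6 did not pass without replicate 3 of 180 min or replicate 2 of 540 min (edgeR, adjusted p up to 0.082). The late libraries were the higher ones for all 4 of these genes, without overlap. Of 40 replication-dependent histone genes tested, 3 were lower (7.5%, against 8.11% of all tested genes) and none was higher. Their median was -0.44. H2ac23 had 4702, 5233 and 4410 CPM and then 2838, 3270 and 3191 CPM, a fall of 0.68 on the log2 scale, but 99.9% of its reads were multimapping and near-identical histone genes cannot be told apart in it.

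The p53 targets had a median log2 change of -0.54. Of 23 tested, 12 were lower and none was higher. Cdkn1a, the cyclin-dependent kinase inhibitor p21, had 533, 525 and 485 CPM at 180 min and 257, 301 and 260 CPM at 540 min. The late libraries all lay far below the earlier ones (-0.97 ± 0.07, edgeR adjusted p = 5.0e-11). Phlda3, an inhibitor of Akt signalling, fell from 28.1, 29.97 and 28.7 CPM to 7.20, 8.05 and 6.82 CPM (-2.02 ± 0.22). Bbc3, the apoptosis inducer PUMA, fell from 36.7, 39.3 and 33.6 CPM to 16.4, 19.8 and 10.1 CPM (-1.30 ± 0.21), and Psrc1, a microtubule-binding protein that is itself a p53 target, from 72.2, 94.3 and 84.0 CPM to 36.2, 34.3 and 27.4 CPM (-1.41 ± 0.13). Mdm2, the ubiquitin ligase that restrains p53, fell from 89.2, 83.2 and 93.99 CPM to 53.4, 63.9 and 54.4 CPM (-0.68 ± 0.11). None of these groups overlapped. Trp53cor1, a noncoding RNA next to Cdkn1a, also fell, from 39.3, 51.6 and 33.4 CPM to 17.4, 17.1 and 19.7 CPM. Between 10 and 13 p53 targets were lower under the alternative settings.

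**Figure D1:**
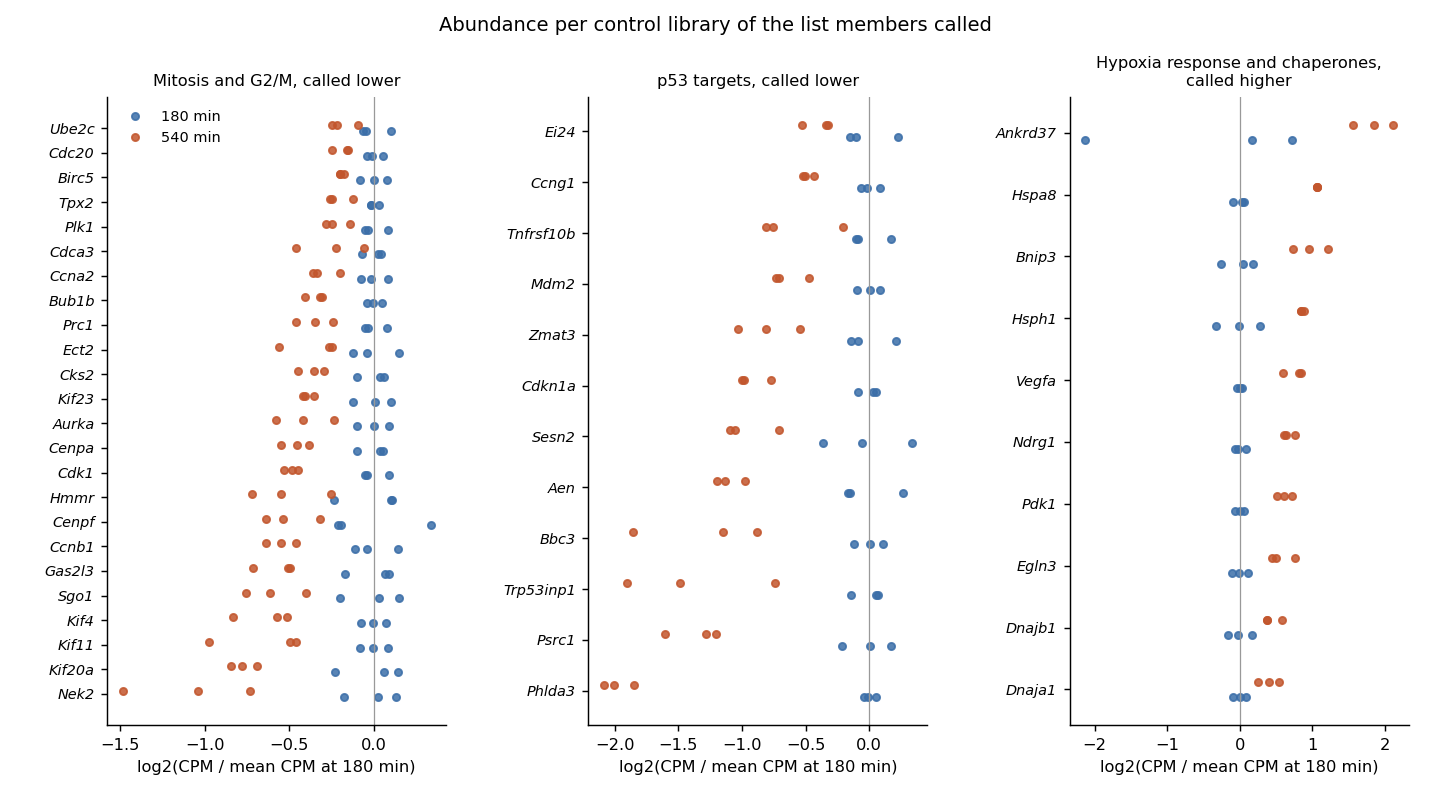
CPM in each control library relative to the gene's mean at 180 min (log2; blue, 180 min; orange, 540 min) for the list members that changed: 24 mitotic genes and 12 p53 targets that fell, and 6 hypoxia genes and 4 chaperones that rose. Points are single libraries; Cdca3 is the gene in which the groups overlap, and the lowest Ankrd37 point stands for 0.361 CPM.

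Hypoxia-responsive genes had 6 of 15 tested members higher and 1 lower, with a median of 0.22. Bnip3, a mitophagy receptor, had 49.5, 44.7 and 36.3 CPM at 180 min and 72.4, 84.3 and 101 CPM at 540 min (0.94 ± 0.13, edgeR adjusted p = 2.3e-05). Vegfa, the endothelial growth factor, had 51.9, 54.8 and 53.5 CPM and then 93.8, 80.5 and 95.7 CPM. Both were higher in every late library. Pdk1, a kinase that inhibits pyruvate dehydrogenase, rose by 0.56 ± 0.10, and Egln3, an oxygen-sensing prolyl hydroxylase, by 0.52 ± 0.09 (log2). Ankrd37 had the largest fitted change (1.82 ± 0.54) on few reads, with 2.61, 1.79 and 0.361 CPM and then 5.73, 6.85 and 4.69 CPM. Mxi1, a MYC antagonist, was the member that fell, a call lost in 4 of the 6 fits with 1 library left out (edgeR, adjusted p up to 0.18).

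Glycolysis was split, with 3 of 21 tested genes higher and 6 lower. The glucose transporter Slc2a1 rose from 44.1, 43.3 and 43.7 CPM to 66.3, 62.3 and 69.0 CPM, and the phosphofructokinase Pfkl from 91.4, 124 and 102 CPM to 140, 194 and 168 CPM. Lactate dehydrogenase Ldha fell from 493, 476 and 510 CPM to 395, 400 and 409 CPM (-0.35 ± 0.05), and the aldolase Aldoa from 1153, 1237 and 1203 CPM to 1035, 1070 and 1064 CPM. In none of the 4 did the groups overlap, and Pfkl did not pass without replicate 3 of 180 min (edgeR, adjusted p = 0.078).

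Chaperones were split as well, 4 of 19 higher and 8 lower. Hspa8, the constitutive HSC70, rose from 382, 348 and 388 CPM at 180 min to 780, 776 and 778 CPM at 540 min, and the late libraries spread less than the earlier ones (1.01 ± 0.05, edgeR adjusted p = 3.9e-13). Its nucleotide exchange factor Hsph1 rose from 35.7, 54.4 and 44.3 CPM to 82.7, 80.6 and 80.1 CPM, and the J-domain cochaperones Dnaja1 and Dnajb1 rose by 0.35 ± 0.09 and 0.39 ± 0.13 (log2), the call of Dnajb1 being lost without replicate 1 or 2 of 180 min or replicate 3 of 540 min (edgeR, adjusted p up to 0.16). Those that fell included Cct5, a subunit of the TRiC chaperonin, by 0.38 and the cytosolic Hsp90ab1 by 0.16 on the log2 scale. Of the Hspa8 reads 27.8% were multimapping. Of 17 genes of the response to stress in the endoplasmic reticulum, 3 were higher and 5 lower. The transcription factor Xbp1 had 557, 552 and 561 CPM and then 952, 987 and 932 CPM (0.73 ± 0.05, edgeR adjusted p = 4.2e-11), and the lumenal chaperone Hspa5 rose less, from 1023, 1107 and 1059 CPM to 1241, 1231 and 1195 CPM, and did not pass in 4 of the 6 fits with 1 library left out (edgeR, adjusted p up to 0.13). Calreticulin, Calr, moved the other way, from 2571, 2690 and 2634 CPM to 2177, 2171 and 2142 CPM. With scaling by library totals alone, 1 and not 5 of these genes was lower.

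Growth-related lists leaned downward. Of 40 genes of ribosome biogenesis 13 were lower and none higher (median -0.21). They included the nucleolar proteins Npm1, from 865, 830 and 856 CPM to 629, 639 and 651 CPM, and Ncl, from 1466, 1404 and 1462 CPM to 1147, 1189 and 1204 CPM, and the snoRNP protein Nhp2 (-0.56 ± 0.08). Of 37 proteasome genes 15 were lower and 1 higher (median -0.18), the catalytic-core subunit Psmb2 by 0.61 on the log2 scale. Ribosomal protein genes, with 17 of 76 lower and 2 higher, had a median of -0.08, and respiratory chain genes, with 9 of 75 lower and 1 higher, had -0.10. These medians are close to the 0.05 by which scaling moves all genes, and with library totals alone 7 ribosomal protein, 4 respiratory chain and 10 proteasome genes were lower. Of 30 genes of the ATF4 amino acid response 5 were lower and none higher, among them the amino acid transporter Slc7a5 (-0.66 ± 0.11) and asparagine synthetase Asns (-0.50 ± 0.10). The metallothioneins, which bind zinc and copper, fell: Mt1 from 2059, 2173 and 2077 CPM to 1535, 1466 and 1492 CPM and Mt2 from 463, 493 and 418 CPM to 294, 339 and 315 CPM, with 6 of 13 genes of oxidative stress and metal response lower (3 with scaling by library totals) and none higher.

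**Figure D2:**
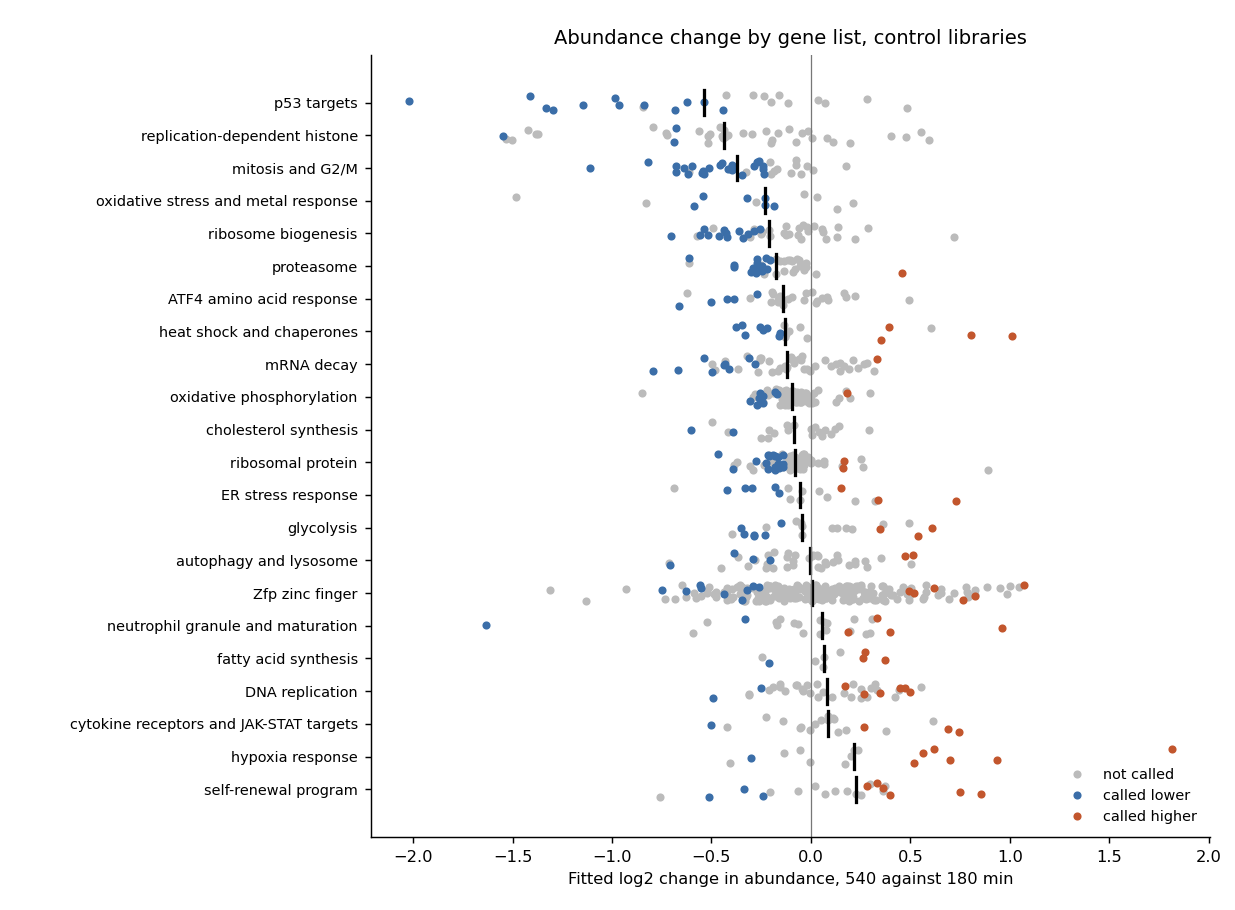
Fitted log2 change in abundance at 540 against 180 min for each tested gene of 22 lists, as points (blue, lower; orange, higher; grey, not called), with the list's median as a black bar. Among the 22 lists drawn, the medians run from -0.54 for the p53 targets to 0.23 for the self-renewal program. All tested genes have a median of 0.00. Lists not drawn include the interferon response (median 0.35, 15 tested) and the mast and basophil markers (-0.72, 2 tested).

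The myeloid program moved gene by gene. Of 21 genes of the self-renewal program, 6 were higher and 3 lower. Cebpa, the transcription factor that commits cells to the granulocyte and monocyte lineage, rose from 105, 101 and 106 CPM to 183, 178 and 182 CPM (0.75 ± 0.08, edgeR adjusted p = 2.4e-07), and Flt3, a growth factor receptor of progenitors, from 32.9, 23.02 and 41.9 CPM to 64.1, 53.5 and 66.0 CPM. Myb, which maintains progenitors, rose by 0.28 ± 0.05. Hoxa9 reads, in which the endogenous gene and the retrovirus cannot be told apart, fell from 2770, 2561 and 2369 CPM to 1946, 2248 and 2115 CPM, and the adhesion receptor Cd44 from 388, 332 and 343 CPM to 266, 264 and 241 CPM. Of 24 tested genes of neutrophil granules and maturation 4 were higher and 2 lower. Cebpe, which directs late granulocyte maturation, rose from 6.62, 11.3 and 8.68 CPM to 14.2, 19.4 and 20.0 CPM, but did not pass without replicate 1 of 180 min or replicate 3 of 540 min (edgeR, adjusted p up to 0.077), while the granule protease Ctsg fell from 3176, 3000 and 3043 CPM to 2604, 2391 and 2603 CPM. The other primary granule genes Elane and Prtn3 did not pass the test (-0.16 ± 0.09 and 0.05 ± 0.04; edgeR, adjusted p = 0.33 and 0.47).

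Signalling genes changed in small numbers. Of 20 cytokine receptors and JAK-STAT targets 3 were higher and 1 lower. The kinase Pim1, a target of STAT5, rose from 422, 404 and 409 CPM to 724, 718 and 700 CPM (0.74 ± 0.05, edgeR adjusted p = 5.0e-11) and Pim3 from 34.7, 36.7 and 48.6 CPM to 72.0, 57.2 and 71.7 CPM. The late libraries were higher in both. Of 17 chemokine and inflammatory genes 4 were higher and 1 lower. The chemokine receptor Ccr2 rose from 1014, 1067 and 990 CPM to 1492, 1365 and 1362 CPM, and the chemokine Ccl3 from 31.9, 27.6 and 25.8 CPM to 72.4, 54.8 and 64.6 CPM. Of 24 immediate early genes 2 were higher and 3 lower, the antiproliferative Btg1 (-0.60 ± 0.10) and the transcription factor Klf6 (-0.59 ± 0.11) among the latter.

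Of 21 genes of cholesterol synthesis 2 were lower (9.52%, near the 8.11% of all tested genes) and none higher. Among the 2 was Nsdhl (-0.60 ± 0.16), which acts late in the pathway. Hmgcs1, which makes HMG-CoA, had 146, 112 and 113 CPM and then 121, 131 and 101 CPM, and the groups overlapped (-0.12 ± 0.11, edgeR adjusted p = 0.52). The values were -0.12 ± 0.12 for Fdps, -0.25 ± 0.12 for Cyp51 and 0.07 ± 0.22 for Fdft1, none of which passed the test. The letters TCACNNCAC, a loose form of the sterol response element, were found on either strand in 4 of 16 promoters of the list (25%), against 4.37% of all genes, and the strict form in none of the 16, against 0.27%. Insig1, which retains the sterol sensor in the endoplasmic reticulum, fell by 0.62 on the log2 scale, a call lost without replicate 1 or 2 of 180 min or replicate 3 of 540 min (edgeR, adjusted p up to 0.15). Of 9 genes of fatty acid synthesis 3 were higher and 1 lower. The synthase Fasn had 368, 382 and 400 CPM and then 485, 502 and 443 CPM, and the desaturase Scd2 had 315, 290 and 292 CPM and then 372, 391 and 359 CPM.

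Among genes of mRNA decay, 9 of 49 were lower and 1 higher. Ddx6, an RNA helicase that links deadenylation to decapping, fell from 415, 428 and 398 CPM to 257, 253 and 232 CPM (-0.79 ± 0.06, edgeR adjusted p = 7.4e-10). Smg5, of nonsense-mediated decay, fell by 0.54, and the exosome subunit Exosc8 rose by 0.33 ± 0.08 (log2). The nuclear noncoding RNA Neat1, the scaffold of paraspeckles, rose from 273, 248 and 277 CPM to 369, 420 and 395 CPM, and its neighbour Malat1 fell from 3765, 3355 and 3522 CPM to 3055, 3116 and 2935 CPM. Of 254 Zfp zinc finger genes 6 were higher and 9 lower, of 42 genes of autophagy and lysosome 2 were higher and 4 lower, of 15 interferon response genes 1 was higher and 1 lower, and of 13 genes of uridine uptake and pyrimidine synthesis 1 was higher, the uridine kinase Uck2 (0.24 ± 0.08), which did not pass in 4 of the 6 fits with 1 library left out (edgeR, adjusted p up to 0.16).

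The largest changes were ranked among genes with a mean of at least 20 CPM. Cirbp, a cold-inducible RNA-binding protein, had the largest fall, from 112, 113 and 121 CPM to 30.7, 35.6 and 34.1 CPM (-1.83 ± 0.11, edgeR adjusted p = 5.2e-12). The corepressors Ski, from 132, 155 and 143 CPM to 59.8, 61.5 and 58.8 CPM, and Skil, from 42.5, 38.9 and 37.96 CPM to 13.9, 11.6 and 17.2 CPM, which both restrain TGF-β signalling, fell together. U2af1, a splicing factor of the 3′ splice site, fell from 256, 223 and 190 CPM to 106, 108 and 95.4 CPM, and Apoe, an apolipoprotein, by 1.13 on the log2 scale. The largest rise was that of Acap3, a GTPase-activating protein, from 14.6, 16.9 and 14.1 CPM to 36.9, 37.8 and 40.9 CPM (1.29 ± 0.18). Tifab, an inhibitor of TRAF6 signalling, rose from 110, 109 and 107 CPM to 237, 244 and 268 CPM (1.15 ± 0.08, edgeR adjusted p = 4.2e-11), and the allergin receptor Milr1, the RNA sensor Ddx58 and the interferon-inducible Ifi209 each rose by 1.06.

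The earlier control libraries place these changes within the chase. Of the 830 genes that rose, 571 had all 3 libraries of 540 min above every library of 0, 60 and 180 min, and of the 821 that fell, 407 had all 3 below every earlier library. Of the 1651 called genes, 1560 already had groups of 180 and 540 min apart. The share beyond every earlier library was not computed over all tested genes. Cdkn1a had means of 620 CPM at 0 min, 582 at 60 min, 514 at 180 min and 273 at 540 min, and Cirbp 85.4, 109, 115 and 33.5 CPM. For these the late libraries were outside the whole earlier range. Several genes that rose had fallen before: Pim1 had means of 872, 517, 412 and 714 CPM at the 4 times and Bnip3 87.9, 76.0, 43.5 and 85.997 CPM, so that their late level did not exceed that at 0 min. Hspa8 (543, 515, 373 and 778 CPM) and Xbp1 (749, 765, 557 and 957 CPM) fell and then passed it. Ccl3 was highest at 60 min (40.0, 117, 28.4 and 63.9 CPM). Ski rose before it fell (83.2, 93.4, 143 and 60.1 CPM). These means of other libraries are descriptions, and the earlier times were not tested here.

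**Figure D3:**
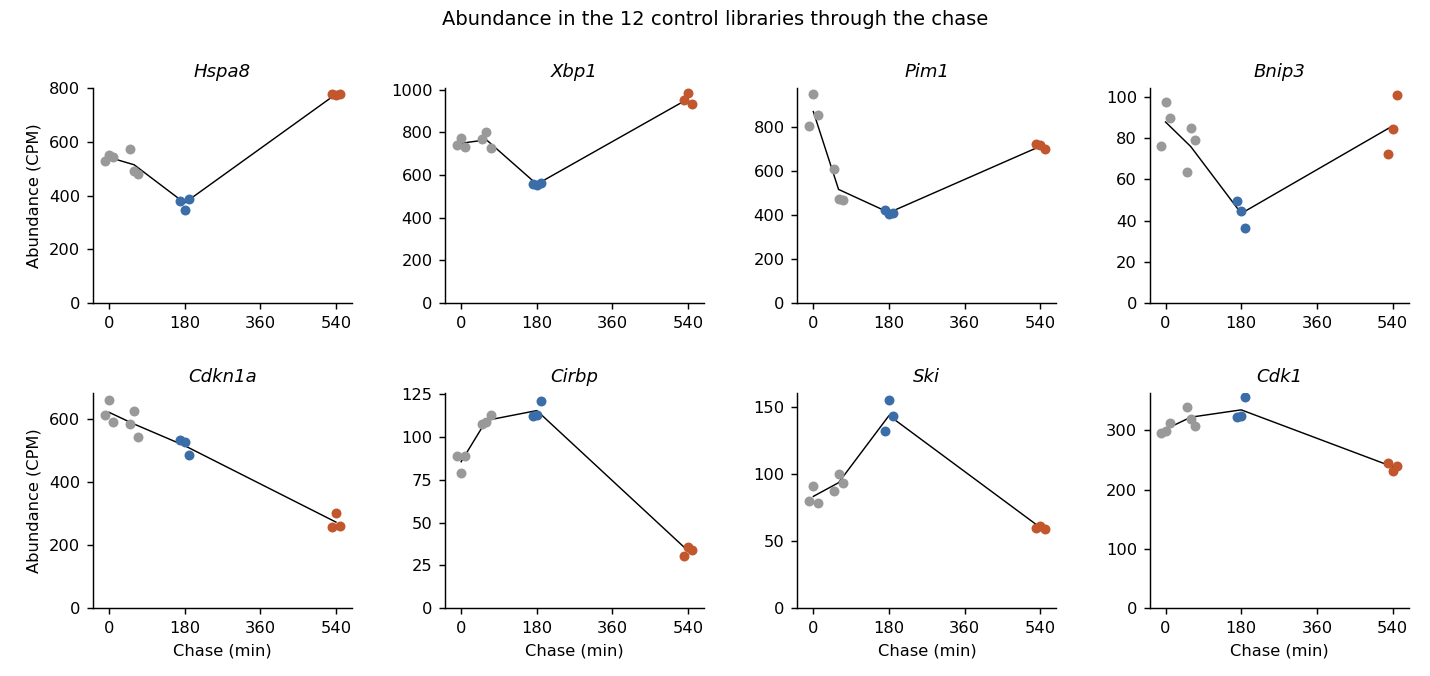
Abundance (CPM) against chase time (min) of 8 genes in the 12 control libraries, 3 points per time drawn side by side, with the line joining the means (grey, 0 and 60 min; blue, 180 min; orange, 540 min). Hspa8, Xbp1, Pim1 and Bnip3 are lowest at 180 min; Cdkn1a, Cirbp, Ski and Cdk1 are lowest at 540 min.

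Label was lost in the same interval. The library-wide conversion rate, all conversions over all covered T positions, was 1.06%, 1.12% and 1.05% at 180 min and 0.309%, 0.330% and 0.305% at 540 min. The means were 1.08% ± 0.0358 and 0.314% ± 0.0133 (SD, n = 3), 3.43-fold apart, and the groups did not overlap (exact two-sided permutation test, p = 0.1, the smallest that 3 against 3 allows). The share of reads with at least 1 conversion was 18.9% to 19.9% and then 6.18% to 6.62%. Per gene, the rate was lower at 540 min for 6565 of 7040 tested genes (93.3%; edgeR quasi-likelihood test on conversions with coverage as offset, adjusted p under 0.05) and higher for none. The median gene kept 17.1% of its rate of 180 min, with a middle range from 10.3% to 30.2%. Written as an apparent half-life of the labelled share, which assumes exponential loss and no background, this is a median of 141 min, and 90% of the genes lay between 83.4 and 532 min. It need not be the half-life of the transcript, since new unlabelled transcripts lower the share too and the abundance of many genes changed. Computed with each replicate number alone the medians were 144, 144 and 145 min. With 0.05% or 0.1% of the coverage taken off as background the median was 119 or 98.8 min. The library-wide rate, which weights genes by coverage, gives 203 min.

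**Figure D4:**
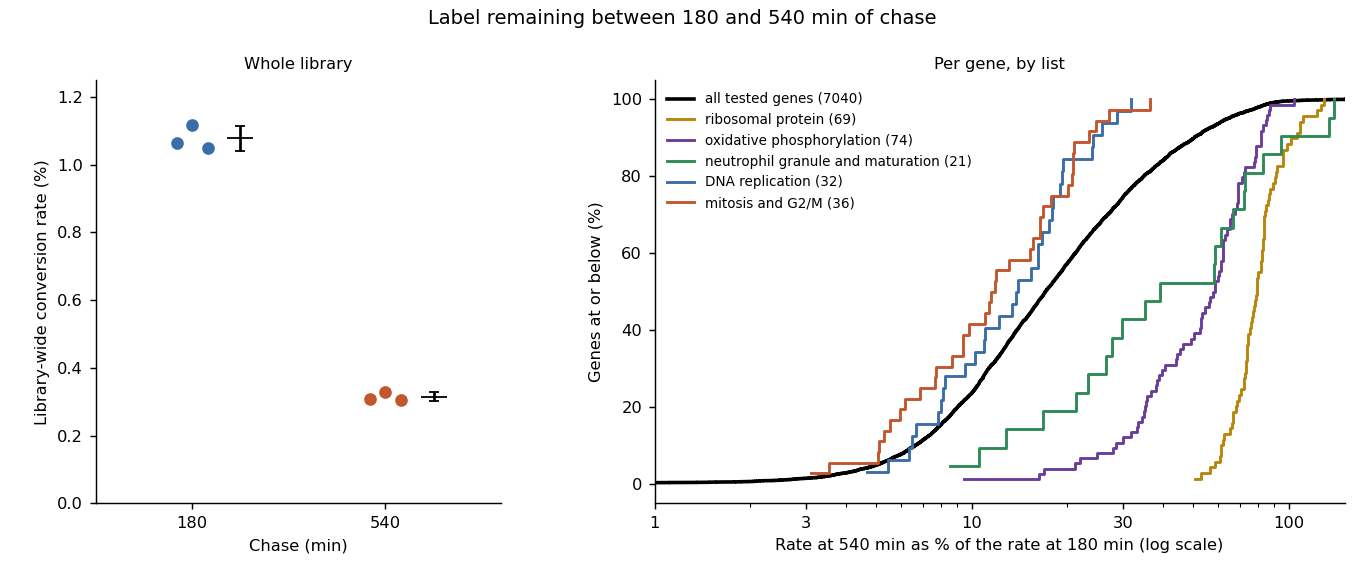
Left, the library-wide conversion rate (%) of each control library at 180 and 540 min, with mean ± SD beside the points. Right, the cumulative share of genes against the share of the 180 min rate that remained at 540 min (log axis starting at 1%), for all 7040 tested genes and for 5 lists with the number tested in brackets: mitotic and DNA replication genes lie to the left of all genes and ribosomal protein genes lie farthest to the right.

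Set against the library-wide loss, 3569 of 7040 genes departed from it (50.7%; edgeR, adjusted p under 0.05), 726 keeping more label, called slower here (10.3%), and 2843 keeping less, called faster (40.4%). This split follows the reference: relative to the median gene, 1565 genes were slower and 1000 faster. The 726 slower genes were few but abundant, holding 27.6% of the coverage, 29.5% of the conversions at 180 min and 58.2% of those at 540 min. Their median rate was 1.11% at 180 min and 0.654% at 540 min, against 1.11% and 0.0953% for the faster genes. Where a gene had 1 counted interval, its median length was 329 bases for slower genes (n = 645), 1126 for faster genes (n = 2540) and 1025 for the others (n = 3051). The interquartile ranges were 135 to 869, 514 to 2067 and 436 to 1983 bases.

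Ribosomal protein genes kept their label. All 69 tested were slower than the library, and also relative to the median gene, and the median member kept 79.5% of its 180 min rate (range 50.6% to 130%). Rpl8 had rates of 1.57%, 1.89% and 1.69% at 180 min and 1.503%, 1.52% and 1.45% at 540 min, and Rplp1, of the ribosome stalk, had 1.31%, 1.51% and 1.43% and then 1.43%, 1.40% and 1.26%. For Rplp1 the groups overlapped. Many ribosomal protein reads are shared with pseudogenes, but of the 22 tested members with at most 10% multimapping reads and no shared interval, all 22 were slower, with a median of 83.2% kept. Among respiratory chain genes 53 of 74 were slower and 3 faster, with a median of 58.2% kept. Cox6c, a subunit of cytochrome oxidase, had 0.934%, 1.08% and 0.763% and then 0.774%, 0.786% and 0.869%.

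Granule and lysosomal genes went both ways. Compared with all genes (10.3% slower, 40.4% faster, median 17.1% kept), both lists had larger slower shares and smaller faster shares. Of 21 neutrophil genes, 9 were slower (42.9%) and 4 faster (19.0%), with a median of 39.1% kept. Elane, neutrophil elastase, had 1.73%, 1.59% and 1.71% at 180 min and 1.58%, 1.67% and 1.497% at 540 min, so that 94.2% of the rate remained. Prtn3, proteinase 3, went from 1.29%, 1.34% and 1.24% to 0.787%, 0.817% and 0.774%, and Ctsg from 1.48%, 1.497% and 1.42% to 0.835%, 0.901% and 0.822%. The rates fell in both but by less than in the library. Ncf1, a subunit of the phagocyte oxidase, was among the faster members, from 0.861%, 0.878% and 0.823% to 0.0704%, 0.0595% and 0.0881%. Of 39 autophagy and lysosome genes 12 were slower (30.8%) and 9 faster (23.1%), with a median of 34.2% kept. Grn and Lamp1, both lysosomal, kept 79.0% and 67.8% of their rate.

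The median mitotic gene kept less label than the median of all genes. No mitotic gene was slower than the library and 23 of 36 were faster, with a median of 11.7% kept (range 3.12% to 36.4%) and an apparent half-life of 116 min. Relative to the median gene 14 of the 36 were faster, against 1000 of 7040 over all genes. Cdk1 had rates of 0.844%, 0.893% and 0.772% at 180 min and 0.0751%, 0.0317% and 0.0493% at 540 min, a half-life of 89.4 min (84.8 to 94.7 min from 1 SE either way). Its late rates all lie below 0.1%, the larger background tried above. The half-lives in this paragraph assume no background, and the SE does not cover it. Cks2, a Cdk1-binding protein, Bub1b, a checkpoint kinase, and Top2a, topoisomerase II, had 86.3, 83.9 and 93.1 min, of which Top2a did not change in abundance (-0.08 ± 0.06, edgeR adjusted p = 0.39). Of 32 DNA replication genes 22 were faster and none slower, and 4 of the 32 were faster relative to the median gene, with a median of 13.9% kept. Mcm6, which rose in abundance, kept 6.69% of its rate. Of 42 genes of mRNA decay 21 were faster (50%) and 2 slower (4.76%), against 40.4% and 10.3% of all genes. Their median was 15.7% kept, near the 17.1% of all genes. Within the list, Ddx6 had 95.7 min against 683 min for the poly(A)-binding protein Pabpc1.

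At the extremes, 30 of the 7040 genes had a fitted rate that was higher at 540 min, none of them past the test, and the 8 slowest with at least 5000 covered T positions in every library are named. Bsg, the surface glycoprotein basigin, had 0.658%, 0.594% and 0.433% at 180 min and 0.484%, 0.558% and 0.707% at 540 min, and its mean at 0 min was 0.641%. Rpl14 had 2.44%, 3.10% and 2.90% and then 3.20%, 3.02% and 2.76%, with 2.39% at 0 min. Ndufa13, Rps12, Rps4x, Rpl36a, Snord89 and 2900060B14Rik were the others, with 104% to 115% of the rate remaining. In such flat rates stable labelled RNA and mismatches that are not label cannot be told apart. The fastest 8 were Map2k1, D030056L22Rik, Usp19, Gga1, Zc3h7a, Tusc1, AI413582 and Drg1. Map2k1, the kinase MEK1, went from 1.52%, 1.71% and 0.903% to 0.0396%, 0.0146% and 0%, on 4 conversions at 540 min, and Drg1, a GTPase, from 1.37%, 1.49% and 1.68% to 0.0562%, 0.0433% and 0.0177%, on 15. Their half-lives of 58.1 to 67.6 min thus rest on few conversions.

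Some of the slower genes had little label left to lose by 180 min. The slower genes kept a median of 88.3% of their 0 min rate at 180 min, the faster ones 64.6% and the others 52.2%. Of the 726 slower genes, 69 had less than 50% of the 0 min rate left at 180 min and 12 less than 25%. Dusp6, a phosphatase induced by ERK signalling, had a mean rate of 2.28% at 0 min, then 0.534%, 0.598% and 0.461% at 180 min and 0.411%, 0.174% and 0.393% at 540 min, and was not called slower with TMM-scaled reads as offset (edgeR, adjusted p = 0.42). Junb and the transcription factor Sox4 ran likewise, from 1.72% and 2.14% at 0 min to 0.361% to 0.756% and 0.579% to 0.755% at 180 min.

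Abundance and label loss were nearly unrelated across the 7040 genes (Pearson r = -0.06, Spearman rho = -0.09; genes are not independent, and both measures share libraries). Of 669 genes that rose in abundance, 55.8% were faster and 4.04% slower in label loss than the library. Of 765 that fell, 44.4% were faster and 15.7% slower. Of 5606 with no call, 37.995% were faster and 10.3% slower. Hspa8 rose while its rate went from 0.925%, 1.07% and 0.928% to 0.119%, 0.0933% and 0.111%, and Xbp1 rose while keeping 11.1% of its rate. Among genes that fell, Cirbp kept 12.3% and Ctsg 58.1%.

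**Figure D5:**
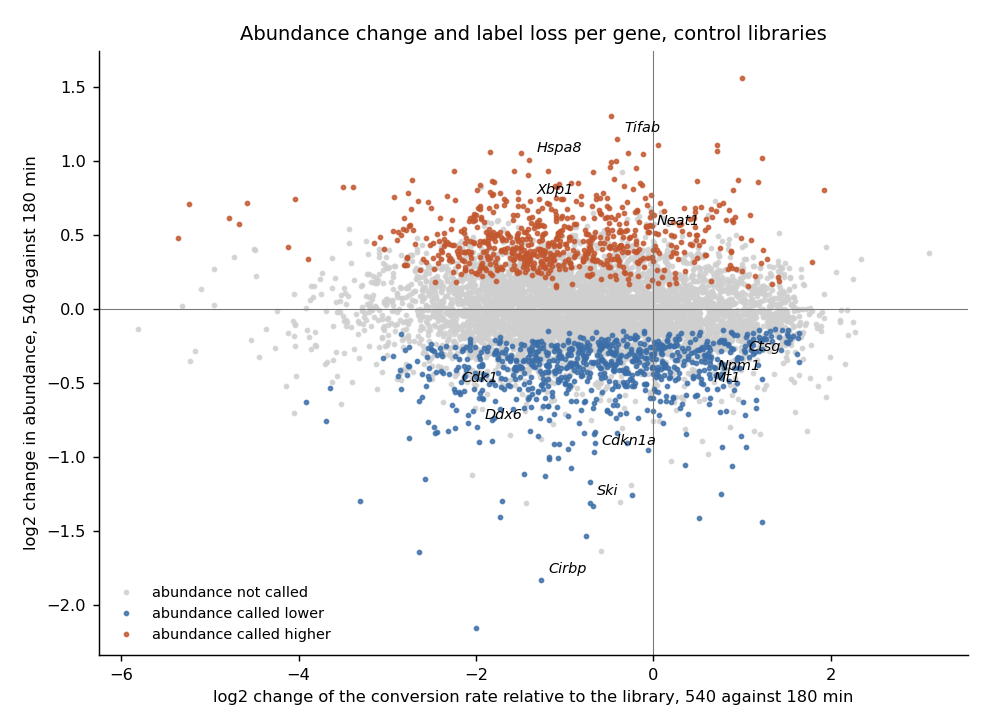
Log2 change in abundance against the log2 change of the conversion rate relative to the library, 540 against 180 min, one point per gene (7019 of 7040; the 21 genes below -6 on the horizontal axis are not drawn), coloured by the abundance call. Genes that rose and genes that fell both spread over the whole horizontal range.

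The cDKO libraries were set beside these to ask whether the late chase depends on the genotype. On their own, 38 of 10193 genes changed in abundance between 180 and 540 min in cDKO cells (0.373%; 24 higher, 14 lower; edgeR), and 1593 had an unadjusted p under 0.05. The difference between genotypes was past the threshold for none of 10626 genes (0%; edgeR, 596 with an unadjusted p under 0.05, and 3 past it by DESeq2), so the smaller count in cDKO cells is not shown to be a smaller response. With the replicate number as a block within genotype 56 genes passed (edgeR), though the numbers were not shown to pair the libraries. Each control library correlated best with that of its own number at the other time (0.063, 0.113 and 0.059). That is a hint of pairing from the data and not from the design, so neither fit settles whether the response was smaller. Of the 38 genes called in cDKO cells, 36 were also called in controls and had the same sign there, the chase times being the batches of both. Hspa8 changed by 1.01 ± 0.05 in controls and 1.05 ± 0.11 in cDKO cells, Cirbp by -1.83 ± 0.11 and -1.75 ± 0.11, Ddx6 by -0.79 ± 0.06 and -0.80 ± 0.08, and Ski by -1.31 ± 0.10 and -1.04 ± 0.11 (log2). The 5 smallest p-values of the difference belonged to Amot, Psrc1, Uck2, Jun and Plk1. Psrc1 changed by -1.41 ± 0.13 in controls and -0.14 ± 0.22 in cDKO cells, and Plk1 by -0.27 ± 0.07 and 0.20 ± 0.08 (edgeR, adjusted p of the difference = 0.30 and 0.54, and 0.0013 and 0.0079 with the block). Bcl2, an inhibitor of apoptosis, had 38.3, 33.9 and 50.2 and then 60.4, 52.3 and 51.1 CPM in controls, and 163, 153 and 216 and then 174, 114 and 232 CPM in cDKO cells.

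Label loss relative to the library differed between genotypes for 19 of 7842 gene names (0.242%; edgeR, adjusted p under 0.05; 763 with an unadjusted p under 0.05), and for 3 when any 1 of the control 180 min libraries, or replicate 3 of cDKO at 540 min, was left out. The direction depended on the reference: 15 names kept more label in cDKO cells and 4 less, against 22 and 0 with coverage alone as offset and 6 and 15 with a background of 0.05% taken off. The cDKO libraries began lower, at 0.550%, 0.569% and 0.386% at 180 min, and had 0.190%, 0.209% and 0.162% at 540 min, replicate 3 being the lowest at both times. Mcm6 went from 1.09%, 1.33% and 1.27% to 0.0658%, 0.0952% and 0.0824% in controls and from 0.760%, 0.735% and 0.491% to 0.211%, 0.207% and 0.106% in cDKO cells, a difference of 1.63 ± 0.25 (log2; edgeR, adjusted p = 8.03e-05). It kept more label in cDKO cells. Tmsb4x, thymosin β4, kept less there, by 0.64 on the log2 scale, a call lost with coverage alone as offset (edgeR, adjusted p = 0.615).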

How the data were processed

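Per the study's methods, RNA of each culture was alkylated, sequenced from the 3′ end (QuantSeq FWD) and processed with SlamDunk against 3′UTR intervals of the mouse genome (GRCm38, SlamDunk 0.4.3 per the submitters' processing notes). The aligner's settings and the handling of variants were not given in the sources used here. The authors deposited, per library, raw read counts, covered T positions and T-to-C conversions for every interval, together with the authors' CPM and a conversion rate per interval, which were not used in any test. Each table had 39419 lines, from which repeated and overlapping intervals were reduced to 29021. These were named through a gene table (99.18% of lines matched) and summed over 20867 genes. CPM in the text were recomputed from these deposited counts over all counted 3′UTR reads.

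Abundance was tested on the counts with edgeR 4.0.16 in R 4.3.3 (quasi-likelihood, robust, TMM factors, filterByExpr), and label loss on conversions with the log of coverage as offset, or of coverage times the library-wide rate for the loss relative to the library (genes with 100 or more covered T positions per library and 50 or more conversions in all). P-values were adjusted by Benjamini-Hochberg over all genes tested, with a threshold of 0.05. Differences between genotypes were tested as the interaction of genotype and time over 12 libraries. SE is the size of the fitted log2 change divided by the square root of its F statistic. An apparent half-life is 360 min divided by the number of halvings. DESeq2 1.42.0, other scalings, filters, background levels, sample sets and each library left out were alternatives. The control fits of abundance and of label loss relative to the library were tested on simulated data. The genotype interactions, half-lives and background steps were not.

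The gene lists, and the genes named from them, were chosen with earlier results of these data known. Named were the 10 largest rises and falls of at least 20 CPM whose groups did not overlap, the 8 slowest and 8 fastest genes with 5000 or more covered T positions per library, the 5 smallest p-values of each genotype difference, up to 4 called members per list and direction, members needed to describe a list, and 8 genes fixed by name. Counting errors are covered by the spread between the 3 replicates. Reads carried no molecular identifiers. Some results are not reported here.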

Additional observations from a re-analysis of the deposited data

Results flagged for a closer look

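The loss of label between 180 and 540 min, relative to the library, differed between control and cDKO cells for the genes below, tested as the interaction of genotype and chase time with edgeR over all genes. Values are log2 differences with SE and the adjusted p, positive where cDKO cells kept more label. Replicate 3 had the lowest library-wide rate of the cDKO libraries at both times. Of 19 names called, 15 kept more label in cDKO cells and 4 less. Without replicate 3 of cDKO at 180 min 21 names were called, and 3 without replicate 3 of cDKO at 540 min. With coverage alone as offset 22 names were called, all with more label kept in cDKO cells and 14 of them among the 19, and with a background of 0.05% taken off 21 were called, 6 with more and 15 with less, 7 of them among the 19.

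Those with more label kept in cDKO cells were led by Mcm6 (1.63 ± 0.25, adjusted p = 8.03e-05). Hspa5, the chaperone of the endoplasmic reticulum, differed by 0.70 ± 0.15 (adjusted p = 0.019) and Npc1, a lysosomal cholesterol transporter, by 2.63 ± 0.57 (adjusted p = 0.028), on 15 conversions in controls at 540 min. The call was lost in 4 of 12 fits with 1 library left out for Hspa5 (edgeR, adjusted p up to 0.10) and in 8 of 12 for Npc1 (up to 0.15). Scamp1 and Snx18, which act in membrane traffic, differed by 2.61 ± 0.60 and 2.16 ± 0.50 (adjusted p = 0.035 for both), on 14 and 20 conversions. For Snx18 the cDKO libraries had the higher rates already at 180 min, 1.12%, 1.13% and 0.883% against 0.528%, 0.531% and 0.519% in controls. Eif2ak1, the heme-regulated kinase, differed by 5.05 ± 1.20 (adjusted p = 0.035), a value that rests on 1 conversion in controls at 540 min. The UDP-glucuronosyltransferase names Ugt1a1, Ugt1a10, Ugt1a2, Ugt1a5, Ugt1a6a, Ugt1a7c and Ugt1a9 share 1 set of reads and had 1 value, 1.97 ± 0.47, and Ugt1a6b, which overlaps it, had 2.04 ± 0.48 (adjusted p = 0.035).

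Less label was kept in cDKO cells for Tmsb4x, the actin-binding thymosin β4 (-0.64 ± 0.11, adjusted p = 0.0012, and 0.615 with coverage alone as offset), Rps29, a ribosomal protein (-0.54 ± 0.12, adjusted p = 0.028), Mif, a cytokine (-0.61 ± 0.14, adjusted p = 0.032), and the noncoding Malat1 (-0.55 ± 0.13, adjusted p = 0.035). Malat1 went from 1.17%, 1.22% and 1.05% to 0.320%, 0.379% and 0.320% in controls and from 0.559%, 0.577% and 0.346% to 0.147%, 0.139% and 0.0948% in cDKO cells.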

How the results depend on the processing

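Over the alternatives the number of genes that changed in abundance was 1004 to 1500 with 1 library left out and 1339 to 1930 otherwise, against 1651, the lowest being that without replicate 1 of 180 min. The genes that lost label were 5878 to 6452 with 1 library left out, and the genes that departed from the library 2815 to 3502, with 2565 relative to the median gene (added after seeing the data) and 4340 with all 12 control libraries. The log2 library-wide rate was -1.81 to -1.75 with 1 library left out (exact permutation p = 0.2, the smallest then possible) and -2.77 as the median of per-gene rates. The median half-life was 119 min with a background of 0.05% and 98.8 min with 0.1% (added after seeing the data). The genotype difference in label loss was called for 3 to 35 names with 1 library left out, for 30 by DESeq2 and for 5 without genes that share reads (added after seeing the data). The lowest count, 3, was found without any of the control libraries of 180 min in turn or without replicate 3 of cDKO at 540 min, and the highest, 35, without replicate 1 of cDKO at 540 min; it was 5, 6 and 7 without replicates 1 and 2 of cDKO at 180 min and replicate 2 of cDKO at 540 min. With coverage alone as offset it was called for 22 names, all with more label kept in cDKO cells, and with a background of 0.05% taken off for 21, 6 with more and 15 with less, against 15 and 4. The genotype difference in abundance was called for none with 1 library left out and for 3 genes by DESeq2.

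The replicate numbers were not shown to pair the libraries. Same-numbered libraries of 180 and 540 min had correlations of their deviations of 0.063, 0.113 and 0.059, and every sample correlated best with its own number, which is a hint from the data and not from the design. Replicate 3 of cDKO had the lowest library-wide rate of its group at 0, 60, 180 and 540 min (0.542%, 0.520%, 0.386% and 0.162%), a hint of the same kind. With the replicate number as a block 1930 genes changed in abundance, 6371 lost label and 3136 departed from the library, and with a block within genotype 56 genes differed in abundance between genotypes (24 higher and 32 lower, among them Psrc1 and Jun at an adjusted p of 0.0013 and Plk1 at 0.0079) and 27 in label loss. Hoxa9 did not pass in abundance with the block (adjusted p = 0.061).

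Of the genes named, 9 of 80 called in abundance and 17 of 76 called in label loss lost their call under at least 1 alternative, in 27 and 55 values. Of the values, 7 in abundance and 6 in label loss turned direction. Most belong to genes that had not passed the test: with 1 library left out Fdft1 ranged from -0.0505 to 0.213, Fdps from -0.187 to 0.00391, Hmgcs1 from -0.214 to 0.0175 and Tut7 from -0.152 to 0.0498, and Tut7 was 0.00738 with library totals. In label loss relative to the median gene, Cdkn1a was 0.12, Cyp51 0.48, Fdps 0.49, Myb 0.0732 and Slc7a5 0.10, and Ldha was -0.27 with TMM-scaled reads as offset. The causes were not tested. Genes with few conversions at 540 min set the depth limit of the fast half-lives.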
